A study of Mus musculus with 7 samples.

Results

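The 9 CC chemokine genes Ccl2, Ccl5, Ccl6, Ccl7, Ccl8, Ccl9, Ccl11, Ccl19 and Ccl20 were followed across 7 CodeLink Mouse Whole Genome arrays, which are 1-colour oligonucleotide arrays, of mouse mammary glands kept in organ culture. They were taken by name, with earlier results of these data known, and they are 9 of 13971 gene symbols that could be matched to probes through RefSeq accessions. Each was measured by 1 probe. The study asked how loss of estrogen receptor α (αERKO) or β (βERKO) alters growth of the gland and the mammary alveolar lesions that the carcinogen 7,12-dimethylbenz[a]anthracene (DMBA) induces in culture. All glands came from 4-week-old mice, and there was 1 array per group. The αERKO and βERKO glands were of C57BL6/129SV background and cultured for 24 days. Wild-type (WT) C57 glands were cultured for 24 days with DMBA, for 24 days without DMBA, or for 10 days without DMBA. Wild-type Balb/c glands were cultured for 24 days with or without vitamin D5.

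The study's methods give DMBA at 2 µg per ml for 24 h from Day 3 of culture, within 10 days of hormone-supported growth that were followed by 14 days of regression. By the study's account, the WT, αERKO and βERKO glands on arrays all received carcinogen over the 24 days, although among their titles only that of the WT array names DMBA. Titles of the Balb/c arrays give no word on DMBA and no vitamin D5 dose. RNA of 5 mice was pooled per array for the WT, αERKO and βERKO groups. Mice of these 3 groups are described as pretreated with 25 ng EGF plus 1 mg progesterone for 5 days, while the labels also give 1 µg estrogen plus 1 mg progesterone for 9 days, and for the other 4 arrays the labels do not settle which applied. The WT and βERKO glands held lesions, and the αERKO glands are described as lesion-free, so genotype and lesions cannot be told apart where αERKO is compared with either. The study's methods say that lesion-free αERKO glands yielded nothing for molecular analysis, whereas its discussion describes RNA from them. The origin of the αERKO array is thus not settled. Genotype and strain background cannot be told apart in any comparison of a knockout array with a WT array.

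Chemokines are small secreted proteins that guide migrating cells, and the CC class, named for a pair of adjacent cysteines, acts mainly on monocytes, macrophages, eosinophils, dendritic cells and lymphocytes through G protein-coupled CC receptors. Many are induced in stromal, epithelial and immune cells by inflammatory signals, whereas others, such as Ccl19, are made steadily in lymphoid tissue. In the growing mammary gland, macrophages and eosinophils gather around the terminal end buds, and Ccl11 is known for its part in drawing eosinophils there.

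Values are log2 of a probe's intensity over the median gene probe of its array, so that 0 is the array median. The software called 68.4% to 74.2% of gene probes good, meaning above background, and the median intensity of 39.1 to 53.0 lay over a local background of 80 to 83. No group had a replicate array, so no test was run and no difference given here has a replicate check. As a yardstick of measurement error, the SD of log2 ratios between different probes of the same transcript is given for each comparison; it was between 0.23 and 0.59, and it does not cover differences between mice or cultures. Of the receptor probes that bear on the labels, Esr1 was called good on the WT array with DMBA, at -1.02, and on the Balb/c array with vitamin D5, at -0.74, and was near background on both knockout arrays. Both good values lay below the array median, so the Esr1 probe does not settle the αERKO label. Esr2 was brightest on the array of βERKO glands, at 0.87, against its label, and where its probe lies relative to the disrupted part of the gene is not given. That array is therefore called the array labelled βERKO, and every direction drawn from it carries this doubt. All 10 epithelial markers were good on each array, and at least 7 of 8 adipocyte markers were. The αERKO array stood apart, with all 10 skeletal muscle markers good and a summed level of 2360 times the array median, against 51.9 on the array labelled βERKO and 8.72 to 10.8 on the other arrays.

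Of the 9 genes, 7 were called good on all 7 arrays. Ccl11 was good on 3 arrays and Ccl20 on 6. Ccl2, Ccl7, Ccl11 and Ccl8 lie in that order in 1 cluster on chromosome 11, and Ccl5, Ccl9 and Ccl6 lie in another on the same chromosome. For 5 of the 9 genes, RefSeq's table of promoters (GRCm38.p6) held an entry, of which the 250 bases before the transcription start are used here. Ccl2, Ccl5, Ccl7 and Ccl11 are named only.

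Ccl2, the main attractant of monocytes through the receptor CCR2, was highest on the array labelled βERKO at 4.79, followed by 3.75 on the WT array with DMBA. It was at 2.74 in WT glands at 10 days, 2.56 in WT glands at 24 days without DMBA, 2.52 in Balb/c glands with vitamin D5, 2.08 in Balb/c glands and 1.62 in αERKO glands. The highest and lowest arrays were thus both titled as knockouts. The 3 arrays between 2.52 and 2.74 were within the probe-pair SD of their neighbours, as were the Balb/c and αERKO arrays.

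Ccl7, a second ligand of CCR2 and the immediate neighbour of Ccl2, was also highest on the array labelled βERKO, at 3.85, with 3.29 on the WT array with DMBA. It was at 1.41 in αERKO glands, 0.83 in WT glands at 24 days without DMBA, 0.54 in WT glands at 10 days, 0.30 in Balb/c glands with vitamin D5 and -0.31 in Balb/c glands. Both CCR2 ligands therefore had the same 2 brightest arrays, but the αERKO array was dimmest for Ccl2 and next after these for Ccl7. Over the 7 arrays, Pearson's r between their log2 values was 0.83 and Spearman's rho 0.61, and r was -0.33 without the 2 arrays farthest from the median of Ccl2.

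Ccl8, which in mice acts on the receptor CCR8, was highest in αERKO glands at 4.98, with 3.46 on the WT array with DMBA and 3.14 on the array labelled βERKO. On the other arrays it was at 2.05 in Balb/c glands with vitamin D5, 1.52 in Balb/c glands, 1.21 in WT glands at 10 days and 0.34 in WT glands at 24 days without DMBA. The gap between 3.46 and 3.14 was within the probe-pair SD. In its promoter, printed to show where the only TATA box match of this window lies, capitals mark TATAAA, at positions -32 to -27 from the start (GRCm38.p6, chr11:82114935-82115184, plus strand).
Ccl8: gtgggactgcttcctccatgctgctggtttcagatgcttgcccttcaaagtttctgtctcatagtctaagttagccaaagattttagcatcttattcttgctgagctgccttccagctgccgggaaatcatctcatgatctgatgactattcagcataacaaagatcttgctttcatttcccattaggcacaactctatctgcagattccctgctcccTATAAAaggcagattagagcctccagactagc

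Ccl11, or eotaxin, which attracts eosinophils through CCR3, was good only at 0.56 in αERKO glands, -0.26 on the WT array with DMBA and -0.89 on the array labelled βERKO. On the other 4 arrays it was near background, between -4.73 and -1.73, where values carry no order. Ccr3, its receptor, was good only on the array labelled βERKO.

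Ccl5, which attracts T cells and monocytes, was highest in αERKO glands at 4.64 and next on the WT array with DMBA at 1.67. It was at 0.034 in WT glands at 24 days without DMBA, -0.27 in Balb/c glands with vitamin D5, -0.31 on the array labelled βERKO, -0.69 in Balb/c glands and -1.20 in WT glands at 10 days. The αERKO array stood clear of all others, and the array labelled βERKO was within the probe-pair SD of both Balb/c arrays.

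Ccl6 and Ccl9 are neighbouring genes for ligands of CCR1 that are made by cells of the myeloid lineage. Ccl6 was at 7.26 on the WT array with DMBA, 5.26 on the array labelled βERKO, 5.23 in WT glands at 24 days without DMBA, 4.96 in αERKO glands, 4.25 in WT glands at 10 days, 3.08 in Balb/c glands with vitamin D5 and 2.07 in Balb/c glands. Ccl9 was at 4.41, 2.71, 2.53, 2.29, 1.31, 0.47 and -0.12 on the same arrays in the same order. For both genes the WT array with DMBA was brightest, the Balb/c arrays were dimmest, and the 3 arrays next to the brightest did not differ beyond the probe-pair SD. Pearson's r between the pair was 0.993 and Spearman's rho was 1 over the 7 arrays, and r was 0.988 without the 2 arrays farthest from the median of Ccl6. The points share arrays that differ in genotype, strain and cell content, and the correlation is given as a description.

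The promoters of this pair are printed to show which runs of letters they share upstream. How often other pairs of promoters share such runs was not counted. Capitals mark runs of at least 12 letters found in both, of which the longest has 13. The Ccl6 promoter is chr11:83593088-83593337 and the Ccl9 promoter chr11:83578637-83578886, both on the minus strand of GRCm38.p6.
Ccl6: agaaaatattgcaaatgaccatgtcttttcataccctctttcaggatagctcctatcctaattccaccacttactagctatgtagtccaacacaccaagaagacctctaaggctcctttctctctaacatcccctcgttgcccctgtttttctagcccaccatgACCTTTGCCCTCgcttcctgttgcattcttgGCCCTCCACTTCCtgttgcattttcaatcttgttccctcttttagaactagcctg
Ccl9: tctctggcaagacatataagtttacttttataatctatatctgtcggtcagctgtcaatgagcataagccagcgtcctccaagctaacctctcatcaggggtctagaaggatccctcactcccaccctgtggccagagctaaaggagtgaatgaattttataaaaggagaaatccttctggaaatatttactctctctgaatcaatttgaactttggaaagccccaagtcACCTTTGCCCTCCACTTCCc
Among motifs searched on both strands, Ccl9 held TGANTCA, the letters bound by AP-1, at positions -53 to -47 from the start, and an NF-kB consensus at -35 to -26. The latter overlaps a TTNCNNAA (C/EBP) match at -38 to -31, and another lay at -75 to -68. Ccl9 also held TATAAA at -92 to -87 on the printed strand, and at -94 to -89 and -224 to -219 on the opposite strand. The AP-1 letters occur in 6.75% of all 32851 promoter windows of this length, the NF-kB consensus in 3.9%, TTNCNNAA in 36.8%, TATAAA in 12.4% and GAGGAA (PU.1) in 23.3%. None of these letters was in the Ccl6 window.

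Ccl19, which guides CCR7-bearing T cells and dendritic cells into lymphoid tissue, was at 6.09 in αERKO glands. It was at 0.62 on the array labelled βERKO, 0.076 on the WT array with DMBA, -0.69 in Balb/c glands, -0.73 in Balb/c glands with vitamin D5, -0.92 in WT glands at 10 days and -1.20 in WT glands at 24 days without DMBA. The αERKO array alone was bright, and the other 6 arrays lay within 2 log2 units of one another. Its promoter held 1 match to the interferon response motif, found in 2.98% of windows, at positions -208 to -199, marked in capitals (GRCm38.p6, chr4:42756366-42756615, minus strand).
Ccl19: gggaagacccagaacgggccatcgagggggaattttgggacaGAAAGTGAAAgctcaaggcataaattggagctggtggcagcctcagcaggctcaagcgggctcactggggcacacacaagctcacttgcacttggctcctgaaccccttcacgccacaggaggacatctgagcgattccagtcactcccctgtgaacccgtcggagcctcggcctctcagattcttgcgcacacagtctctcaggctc

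Ccl20, an epithelial product that attracts CCR6-bearing lymphocytes and dendritic cells, ran differently from the rest. It was at 1.52 in Balb/c glands with vitamin D5, 1.46 in WT glands at 10 days, 0.72 in Balb/c glands, -0.096 on the array labelled βERKO, -0.98 in WT glands at 24 days without DMBA and -1.32 on the WT array with DMBA. In αERKO glands it was near background, at -2.64. The Ccl20 promoter is printed because it held an NF-kB consensus at positions -80 to -71, marked in capitals (GRCm38.p6, chr1:83116516-83116765, plus strand). A match of letters is a description and shows no binding.
Ccl20: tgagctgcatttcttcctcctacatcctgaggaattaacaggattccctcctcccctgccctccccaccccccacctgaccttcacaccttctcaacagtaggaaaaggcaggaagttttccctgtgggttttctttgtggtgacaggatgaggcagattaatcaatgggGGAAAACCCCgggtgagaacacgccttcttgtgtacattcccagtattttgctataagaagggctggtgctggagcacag

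**Figure D1:**
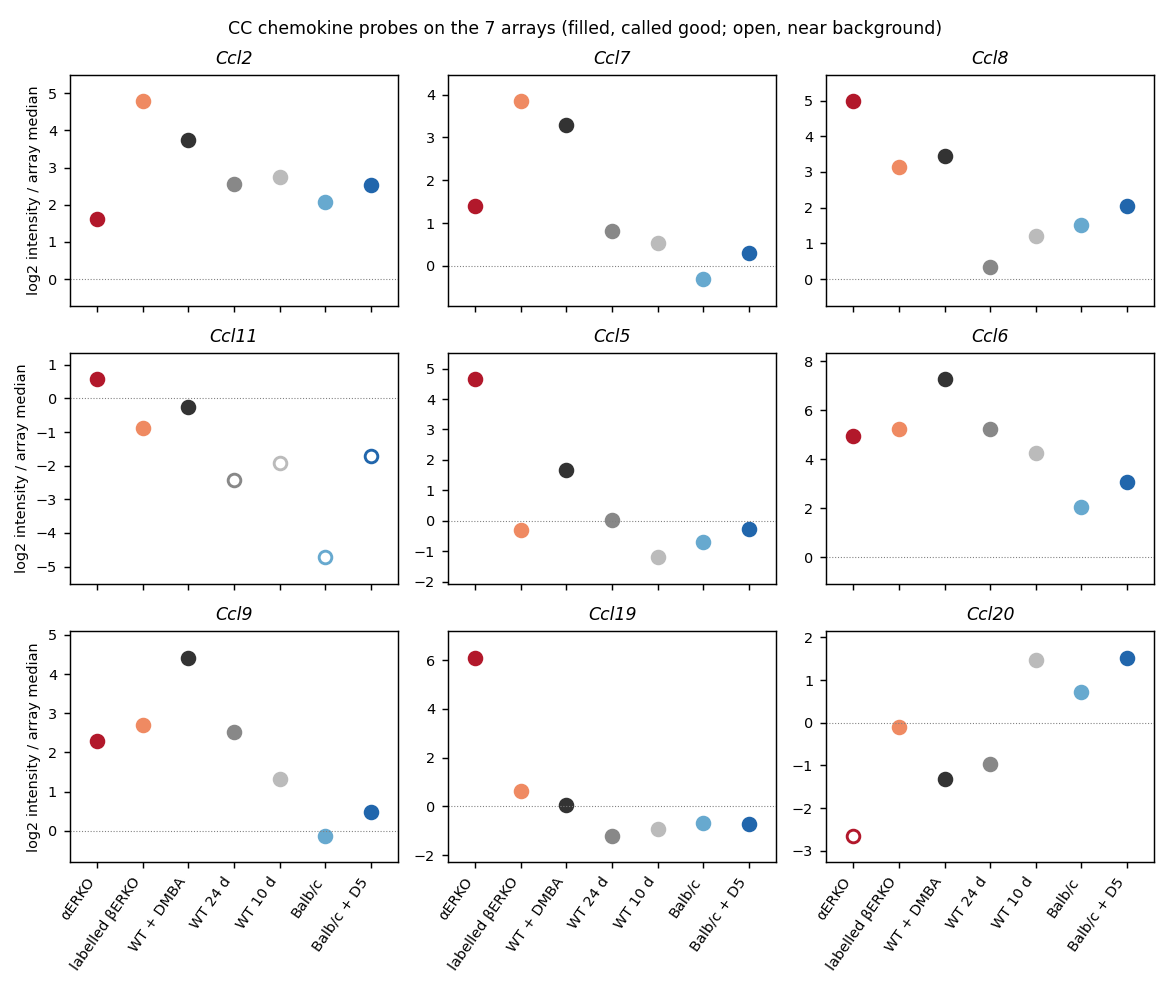
Log2 intensity over the array median (vertical axis, scaled separately for each gene) of the 9 CC chemokine probes on the 7 arrays (horizontal axis); each point is 1 array, filled where the probe was called good and open where it was near background. Ccl5 and Ccl19 stand highest in αERKO glands at 4.64 and 6.09, Ccl6 and Ccl9 in WT glands with DMBA at 7.26 and 4.41, and Ccl20 is near background in αERKO glands.

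The comparison of WT glands with and without DMBA at 24 days asks which chemokine transcripts differ after carcinogen exposure in wild-type tissue. The pretreatment behind the array without DMBA is not settled, so DMBA, lesions and pretreatment cannot be told apart here. On the array with DMBA, 8 of the 9 genes were higher by over 2-fold and 0 were lower. Of all 27808 probes tested, 18.6% differed by over 2-fold, 10.1% being higher and 8.46% lower. The median log2 ratio of the 9 genes was 1.89, against -0.13 over all probes, and the probe-pair SD was 0.31. Among the CCR2 ligands and their neighbours, the log2 ratio was 3.11 for Ccl8, 2.47 for Ccl7 and 1.19 for Ccl2. Ccl11 was at least 2.57-fold higher, since it was near background without DMBA. For the CCR1 ligands it was 2.04 for Ccl6 and 1.89 for Ccl9, and it was 1.63 for Ccl5 and 1.28 for Ccl19. Ccl20, at -0.34, was the only one of the 9 genes not over 2-fold. With normexp background correction, which compresses dim probes, Ccl11 and Ccl19 no longer passed 2-fold, at log2 ratios of 0.55 and 0.47.

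Markers of several cell types moved in the same comparison, and in RNA of whole glands fewer cells of a type and less RNA per cell cannot be told apart. Of 9 macrophage markers with a probe, 8 were over 2-fold higher with DMBA, and their summed level was 700 times the array median against 243. No probe was matched to Cd68, Adgre1 or Csf1r. All 10 fibroblast markers were higher, at 390 against 70.4 in sum, with Col1a1, Col1a2 and Thy1 near background without DMBA. Of 9 endothelial markers tested 7 were higher, at 58.3 against 14.7, and 6 of 8 adipocyte markers were higher, at 2260 against 1230. Epithelial markers went the other way, with 6 of 10 lower, at 714 against 1510. The part of these lists in the chemokine differences was not tested.

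The comparison of αERKO with WT glands with DMBA sets glands titled as lacking receptor α against wild-type glands. Genotype, lesions and strain background cannot be told apart in it, and the origin of the αERKO array is not settled. The genes split by direction: 3 of 9 were over 2-fold higher in αERKO glands and 5 were lower, against 11.7% of 27812 probes higher and 14.1% lower (25.8% in all), and the median log2 ratio was -1.32 against -0.088 over all probes. Ccl19 was 64.8-fold higher, a log2 ratio of 6.02, which ranked 118 from the top among all probes tested. Ccl5 followed at 2.98 and Ccl8 at 1.52. Lower were 4 genes good on both arrays, with log2 ratios of -2.30 for Ccl6, -2.13 for Ccl2, -2.12 for Ccl9 and -1.89 for Ccl7. Ccl20 was at least 1.11-fold lower, a bound under 2-fold because its probe was near background in αERKO glands, and its log2 ratio was -0.13 under normexp. Ccl11 was at 0.82, within 2-fold. The probe-pair SD was 0.59, the widest of the 7 comparisons.

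Cell type markers again differed beside these values. All 6 T cell markers tested, of 7 with a probe, were over 2-fold higher in αERKO glands, with a summed level of 89.3 times the array median against 5.14, and 4.79 to 6.26 on the other arrays, whereas Cd3e was good on none. The sum over 7 dendritic cell markers was 96.6 against 12.9, with 3 of them higher, and that over 8 B cell markers 30.2 against 13.4, with 4 higher. All 10 skeletal muscle markers were higher, and 4 of them were good on the WT array. Also near background on that array were Cd3g, Cd8b1, H2-Ab1, Cd79b, Ms4a1 and Blk. In this comparison these genes were detected in αERKO glands only. Of 9 macrophage markers 8 were lower, at 183 against 700, and of 10 epithelial markers 5 were lower, at 503 against 714. The part of these lists in the differences of Ccl5, Ccl19, Ccl6, Ccl9 and Ccl20 was not tested.

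Against the same WT array, the array labelled βERKO differed less. Of the 9 genes, 2 were over 2-fold higher and 3 lower, with 6.96% of 27469 probes higher and 8.37% lower (15.3% in all). Ccl20 was higher at a log2 ratio of 1.22 and Ccl2 at 1.04, the latter just past 2-fold. Ccl2 came within 2-fold under each of 75th percentile scaling, quantile normalisation, cyclic loess and normexp, at 0.84 to 0.99, and Ccl20 did under normexp, at 0.46. Lower were Ccl6 at -2.01, Ccl5 at -1.97 and Ccl9 at -1.71, all several times the probe-pair SD of 0.37. Ccl7, Ccl19, Ccl8 and Ccl11 lay within 2-fold, at 0.55, 0.55, -0.32 and -0.63. The median over the 9 genes was -0.32 against 0.089 over all probes. Of 9 macrophage markers 7 were lower, at 175 against 700 in sum, of 9 endothelial markers 7 were lower, at 22.8 against 58.3, and of 10 fibroblast markers 6 were lower, at 272 against 390. All 6 skeletal muscle markers tested were higher, at 51.9 against 10.6, with Tnnc2 and Pvalb near background on the WT array. Among the lower markers, Cd163, Flt1 and Lyve1 were near background on the array labelled βERKO. The part of these lists was not tested.

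Set directly against the array labelled βERKO, αERKO glands had 4 of 9 genes over 2-fold higher and 3 lower, where 13.5% of 27026 probes were higher and 16.6% lower (30.1% in all). The log2 ratio was 5.47 for Ccl19, 4.95 for Ccl5, 1.84 for Ccl8 and 1.45 for Ccl11. It was -3.16 for Ccl2 and -2.44 for Ccl7, and Ccl20 was at least 2.59-fold lower. Under normexp Ccl11 and Ccl20 came within 2-fold, at 0.59 and -0.59. Ccl6 and Ccl9 were within 2-fold, at -0.30 and -0.41. The probe-pair SD was 0.56, and the median over the 9 genes was -0.30 against -0.18 over all probes. Beside these values, all 6 T cell markers tested were higher in αERKO glands, at 89.3 against 5.62 in sum, as were all 10 skeletal muscle markers, at 2360 against 51.9, and 8 of 10 fibroblast markers, at 532 against 272. Among these, Cd3g, Cd8b1, Ckm, Tnnt3, Myh4, Actn3 and Thy1 were near background on the array labelled βERKO. Of 10 epithelial markers 8 were lower, at 503 against 1120, and of 9 macrophage markers 4, among them C1qa, C1qb and C1qc, were higher and 1 lower, at 183 against 175. Their part was not tested. These 3 comparisons share their arrays, as does the one with DMBA the WT array, so they are not separate observations.

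**Figure D2:**
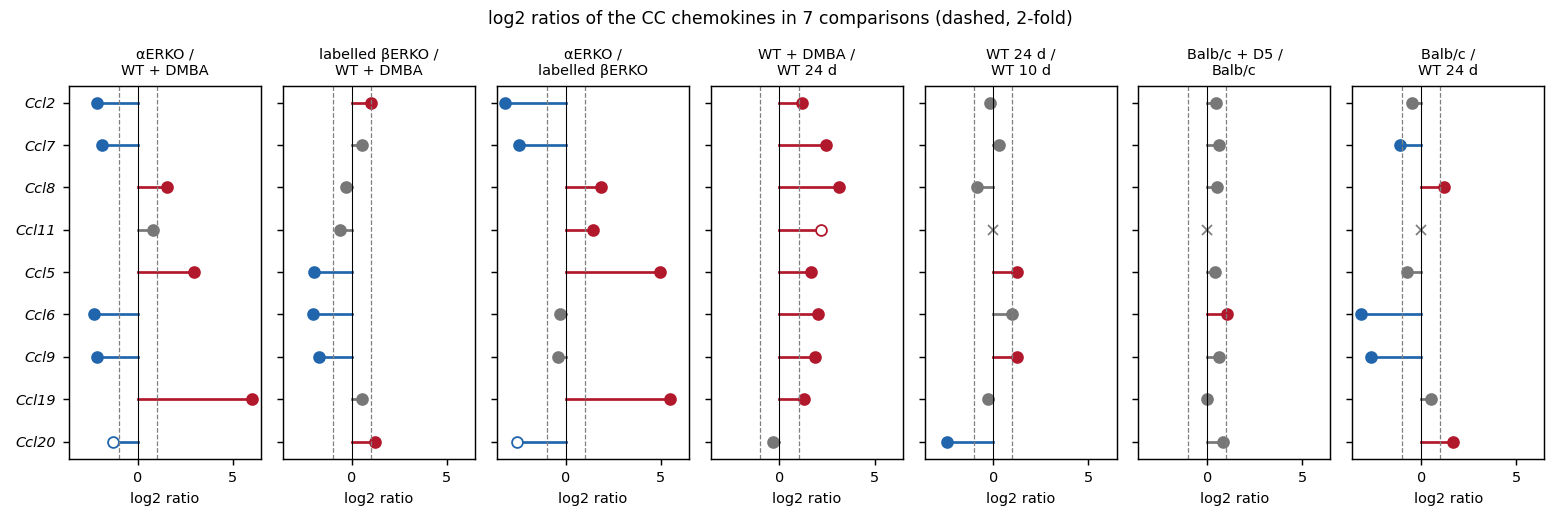
Log2 ratio (horizontal axis) of each CC chemokine (rows) in 7 comparisons (panels); red is over 2-fold higher, blue over 2-fold lower, grey within 2-fold, open points have the probe near background on 1 of the arrays, and crosses mark probes near background on both. With DMBA 8 of 9 genes lie to the right of the 2-fold line, whereas in αERKO against WT glands 3 lie to the right and 5 to the left.

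Time in culture was compared in WT glands without DMBA, at the end of growth at 10 days and after regression at 24 days. Of 8 genes tested, 2 were over 2-fold higher at 24 days and 1 lower, with 6.05% of 27173 probes higher and 6.34% lower (12.4% in all). Ccl5 was higher at a log2 ratio of 1.24 and Ccl9 at 1.22, and Ccl6 lay just inside the threshold at 0.98. Ccl20 was lower at -2.44, ranking 230 from the bottom, and the probe-pair SD was 0.23. Under normexp Ccl5 and Ccl9 came within 2-fold, at 0.46 and 0.91. Ccl8, at -0.87, Ccl19, at -0.28, Ccl7, at 0.29, and Ccl2, at -0.18, were within 2-fold, and the median of the 8 genes was 0.054 against 0.091 over all probes. Of 8 adipocyte markers 6 were higher at 24 days, at 1230 against 462 in sum, and of 9 macrophage markers 4 were, at 243 against 179. Epithelial markers summed to 1510 against 1750. Of the 10 tested, 2 (Krt14 and Krt5) were lower and 0 higher, and their median log2 ratio was 0.12 against 0.091 over all probes. The part of these lists was not tested.

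Vitamin D5 was compared in Balb/c glands at 24 days. Only Ccl6 of 8 genes tested passed 2-fold, at a log2 ratio of 1.01, with 5.12% of 28418 probes higher and 7.06% lower (12.2% in all). Its ratio was between 0.87 and 0.89 under each of 75th percentile scaling, quantile normalisation, cyclic loess and normexp. Ccl20 was at 0.81, Ccl7 at 0.61, Ccl9 at 0.59, Ccl8 at 0.52, Ccl2 at 0.44 and Ccl5 at 0.42, and Ccl19 was at -0.036. The median of the 8 genes was 0.56, against 0.089 over all probes, and the probe-pair SD was 0.23. Of 7 macrophage markers tested 0 passed 2-fold in either direction, at 159 against 124 in sum, and of 10 fibroblast markers 3 (Col1a2, Col3a1 and Lum) were higher, at 64.6 against 40.5. Their part was not tested.

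Balb/c and WT glands at 24 days differ in strain, and only the title of the WT array states that no DMBA was used. Of 8 genes tested, 2 were over 2-fold higher in Balb/c glands and 3 lower, with 9.17% of 28069 probes higher and 9.33% lower (18.5% in all). Ccl6 was 8.94-fold lower, at a log2 ratio of -3.16, and Ccl9 was 6.27-fold lower, at -2.65, ranking 186 and 289 from the bottom. Ccl7 was lower at -1.13, and came within 2-fold under 75th percentile scaling, cyclic loess and normexp, at -0.97 to -0.58. Ccl20 was higher at 1.69 and Ccl8 at 1.18, both within 2-fold under normexp at 0.76 and 0.77, while Ccl19 was at 0.51, Ccl2 at -0.48 and Ccl5 at -0.73. The median of the 8 genes was -0.60 against -0.15 over all probes, and the probe-pair SD was 0.33. Of 9 macrophage markers 7 were lower in Balb/c glands, at 124 against 243 in sum, and 6 of 8 adipocyte markers were lower, at 440 against 1230. Among the lower markers, C1qb, Mrc1, Cd163, Itgam and Lep were near background in Balb/c glands. Of 10 epithelial markers 1 was higher and 2 were lower, at 1440 against 1510. Their part was not tested. This comparison shares 1 array with each of the 2 before it and with the one on DMBA.

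**Figure D3:**
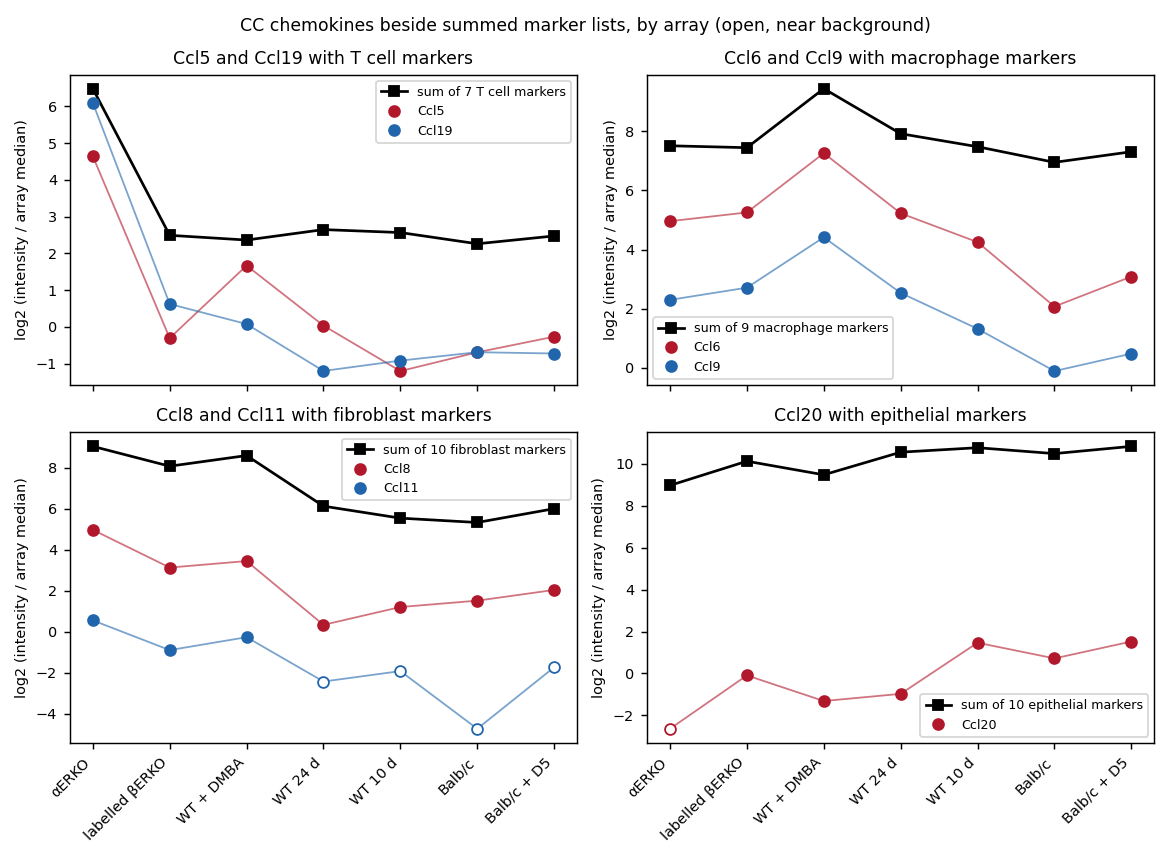
Log2 of intensity over the array median (vertical axis) for CC chemokines (coloured circles, open where near background) and for the summed level of a marker list (black squares) on the 7 arrays (horizontal axis); the heights of different probes are not comparable, only their courses over arrays. T cell markers and Ccl19 are highest in αERKO glands, at 89.3 times the median in sum and 6.09, and macrophage markers and Ccl6 on the WT array with DMBA, at 700 times the median in sum and 7.26.

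The receptors and the remaining CC chemokines were read from lists of their own. Of 10 CC receptors tested, 2 were over 2-fold higher and 2 lower in αERKO than in WT glands with DMBA, with a median log2 ratio of -0.20, beside 11.7% and 14.1% of all probes and a median of -0.088. Counts this small are near those shares. The 2 higher were Ccr7, the receptor of Ccl19, at least 2.34-fold, and Ccr2, the receptor of Ccl2 and Ccl7, at least 4.92-fold, both named after their values were seen. Ccr1, the receptor of Ccl6 and Ccl9, was lower at a log2 ratio of -1.64, and higher at 1.19 in WT glands with DMBA than without. Against WT glands at 24 days without DMBA, Ccr1 in Balb/c glands was lower at -1.17.

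Of 12 other CC chemokines tested in αERKO against WT glands with DMBA, 5 were higher and 2 lower, with a median log2 ratio of 0.48. Over all probes 11.7% were higher and 14.1% lower, and the median was -0.088. Ccl21a, the other ligand type of CCR7, was higher at 3.11, Ccl27a, an attractant of skin-homing T cells, at 2.68, and Ccl24, a second eotaxin, at 2.62. The Ccl21 genes are near-identical copies and their probes may read one another. Ccl3, a ligand of CCR1, was at least 8.80-fold lower, and was named after its value was seen. With DMBA against without, 3 of 11 were higher and 3 lower, beside 10.1% and 8.46% of all probes. Among them Ccl3 was at 1.76, Ccl12, a monocyte attractant of the Ccl2 cluster, at 1.30 and Ccl28, an epithelial attractant of plasma cells, at -1.78. The median of the 11 was -0.12 against -0.13 over all probes, whereas that of the 9 genes above was 1.89. Both lists were chosen with earlier results of these data known, so this contrast cannot show that the rise is particular to the 9 genes. Ackr3, a scavenging receptor, was higher at 1.97 with DMBA and was lower at -1.37 in αERKO glands and -1.36 on the array labelled βERKO, each against WT with DMBA.

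Genes whose log2 values over the 7 arrays were most like each chemokine were listed from 3937 genes. Closest to Ccl6 were Ccl9, at r = 0.993, Syn2, at 0.990, and Plek, at 0.987, and closest to Ccl9 after Ccl6 were Syn2, at 0.992, and Lonp2, at 0.987. Ccl20 was most like Cyp2d26, at 0.984, Krt5, at 0.983, and Ereg, at 0.983. Krt5 is the keratin of basal epithelial cells. Ccl8 was most like Lum, a proteoglycan of fibroblasts, at 0.983, with Adcy6 at 0.982 and Sp140 at 0.981. Ccl2 was most like Arhgap45, Kcne4 and Tnfrsf26, at 0.970 to 0.981, and Ccl7 most like Gltp, Abca2 and Nek6, at 0.990 to 0.992. For Ccl5 the closest were Itga11, Lgi4 and Dpep1, at 0.988 to 0.993, and for Ccl19 Mybpc2, Adrb3 and Igdcc3, at 0.995 to 0.996. Mybpc2 encodes a myosin-binding protein of skeletal muscle, whose markers were brightest on the αERKO array. Without the 2 arrays farthest from the median, r was 0.698 to 0.906 for the companions of Ccl5 and 0.789 to 0.972 for those of Ccl19, where the αERKO array lay far above the rest. All these values are descriptions over 7 arrays that share their differences in genotype, strain and cell content.

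**Figure D4:**
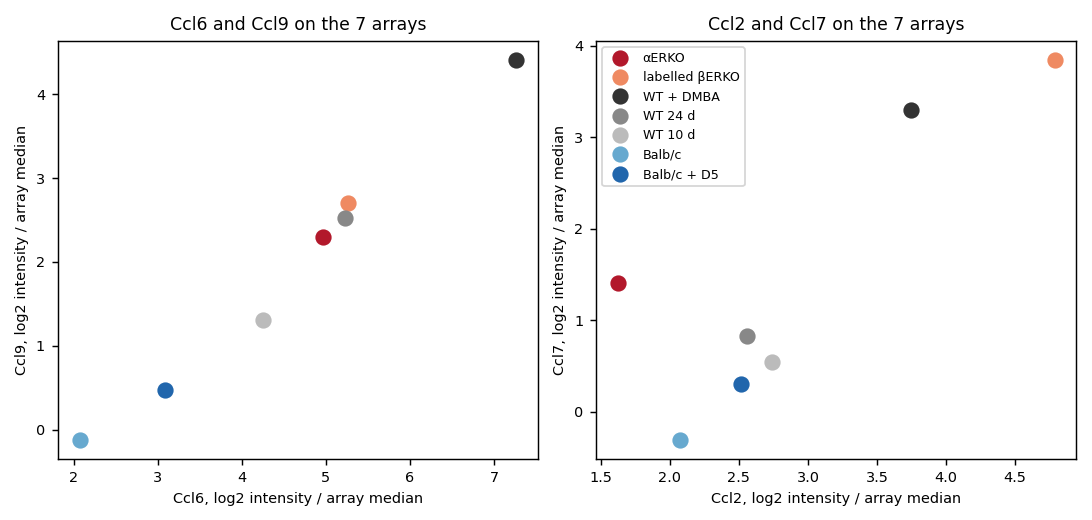
Log2 intensity over the array median of Ccl9 against Ccl6 (left) and of Ccl7 against Ccl2 (right); each point is 1 of the 7 arrays. The points of Ccl6 and Ccl9 follow 1 line (r = 0.993), whereas those of Ccl2 and Ccl7 do so less (r = 0.83), with the WT array with DMBA and the array labelled βERKO apart at the upper right.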

How the data were processed

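RNA of cultured mouse mammary glands was measured on 7 CodeLink arrays, 1 per group, and no arrays were averaged. In the files the authors deposited after hybridisation and scanning, a spot's intensity is the mean of its pixels minus the local background median, and CodeLink software gave each spot a quality call. The authors also deposited a normalised intensity, each array divided by 1 constant. The genome build behind the array probes and the version of the CodeLink software are not given in the sources used here. The series value table was not used, since its rows name no probe.

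Intensities of the 34967 gene probes (control spots left out) were divided by the array's median gene probe. Before log2 was taken, values of 0 or less were set to the smallest positive value of their array. A comparison covered probes called good on 1 or both of its arrays, and counted differences over 2-fold. Where a probe was near background on 1 array, a bound is given in place of a fold, using there the lowest good value of the array unless the probe itself was above it. RefSeq's mouse gene table matched 14763 of 15553 probes with a RefSeq accession. Genes with several probes are given by the brightest. The SD between probes of the same accession rests on 526 to 553 pairs. Likeness used genes good on at least 5 arrays with an SD of at least 0.5 on the log2 scale, and the 3 genes of highest Pearson's r are named per chemokine good on at least 5 arrays. From the other lists, genes over 2-fold and good on both arrays could be named, the largest in each direction first, and the rest are counted; genes near background on 1 array are named with a statement. Results of 1 gene of these lists are not reported here.

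The members and lists were chosen with earlier results of these data known. Alternatives were 75th percentile scaling, quantile normalisation, cyclic loess, normexp with an offset of 50 (limma 3.58.1 in R 4.3.3), the deposited normalised intensities, a floor at the lowest good value, the mean over probes of a gene, thresholds of 1.5-fold and 3-fold, and other filters. The counting was tested on simulated data. Other scripts used Python 3.11.15 with pandas 2.3.3 and numpy 2.4.6. The number of arrays limits the precision.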

Additional observations from a re-analysis of the deposited data

How the results depend on the processing

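No paired analysis was possible because each group had 1 array, and no array could be left out for the same reason. Of 441 alternative values for the 63 log2 ratios of single chemokines, 400 stayed within the probe-pair SD and 41 moved by more, of which 32 under normexp. Among ratios called over 2-fold, 0 changed sign. Smaller ratios could, as Ccl6 did in αERKO glands against the array labelled βERKO, from -0.30 to 0.11 under cyclic loess. The 400 include 63 values from the mean over probes, which could not move because each gene had 1 probe. They also include 63 from the deposited intensities, which differ only by a constant per array and could hardly move. A further 57 came from the floor at the lowest good value, which leaves ratios of 2 good probes unchanged. The other 6 values under that floor, all with a probe near background, moved. Of 77 alternative counts of chemokines over 2-fold, 63 were within 1.5 times the first count. These too include the mean over probes and the deposited intensities. The count for the array labelled βERKO against WT moved from 5 to 3 under normexp and at 3-fold. For WT at 24 against 10 days it moved from 3 to 1 under normexp and at 3-fold, and to 5 at 1.5-fold. For vitamin D5 it moved from 1 to 0 under 75th percentile scaling, quantile normalisation, cyclic loess, normexp and at 3-fold, to 4 at 1.5-fold, and to 2 without a filter. For Balb/c against WT it moved from 5 to 2 under normexp and to 3 at 3-fold. Scaling moved the median of all probes by up to 0.23 (cyclic loess, αERKO against the array labelled βERKO). The share of higher probes among all called went in that comparison from 44.9% to 55.8% (75th percentile) and 55.6% (cyclic loess), for Balb/c against WT from 49.6% to 67.1% (75th percentile) and 36.6% (normexp), and under normexp from 54.5% to 70.3% for DMBA, 48.8% to 37.6% for time and 42.0% to 62.1% for vitamin D5. Dim probes such as Ccl11 and Ccl20 are limited by signal over background, and the cause of each other move was not tested.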

Other observations

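Inducers of CC chemokines were also read. Of 14 genes of the NF-kB pathway and its inducers tested in αERKO against WT glands with DMBA, 2 were over 2-fold higher and 6 lower, with a median log2 ratio of -0.90 against -0.088 over all probes. Of all probes 11.7% were higher and 14.1% lower. Ltb, which encodes lymphotoxin β, an inducer of Ccl19 in lymphoid stroma, was at least 20.3-fold higher, and was named after its value was seen. Ltbr, which encodes the receptor of lymphotoxin, was lower at -2.24, and among the other lower genes Tnfrsf1a was at -1.30, Nfkb2 at -1.26 and Il1r1 at -1.10. Il1b was near background on all 7 arrays. With DMBA against without, 2 of 14 were higher and 1 lower, with a median of 0.22 against -0.13 over all probes. Of all probes 10.1% were higher and 8.46% lower, and these counts are near those shares.

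Of 9 type 2 response genes tested in αERKO against WT glands with DMBA, 3 were higher and 2 lower, with a median log2 ratio of 0.25. Of all probes 11.7% were higher and 14.1% lower, with a median of -0.088. Retnla, a secreted product of alternatively activated macrophages and of adipose tissue, was higher at a log2 ratio of 7.10, and Chil3, a chitinase-like protein of macrophages, was lower at -2.07. On the array labelled βERKO against the same WT array, Retnla was at 1.02 and Chil3 at -1.35.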
